A study of Mus musculus with 6 samples.

Results

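The histone genes of preSC cells were examined in 6 poly(A)-selected RNA-seq libraries. Members were taken by gene symbol, and they number 80 of the 23284 genes in the count files. Of these, 68 are replication-dependent histone genes (symbols beginning with Hist and a digit) and 12 are histone variant genes (symbols beginning with H2af, and H3f3a, H3f3b, H1f0 and H1fx). The labels describe preSC cells as mouse precursors of SCLC (small cell lung cancer), and every library carried a lentiviral pLKO.1-TRC vector. Control replicates 1 and 2 held the empty vector (shEmpty), and control replicate 3 the non-silencing version of it (shNS). The other 3 libraries, the knockdown group (shCrebbp), expressed hairpins 1, 2 and 5 against Crebbp, the gene of the histone acetyltransferase CBP, with 1 library per hairpin. Separate cultures are not named, so each p-value reflects spread among libraries that may be technical, and which in the knockdown group includes the differences between hairpins.

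Nucleosomes are built from the core histones H2A, H2B, H3 and H4, and linker histone H1 binds the DNA between them. Replication-dependent histone genes lie in clusters, mostly lack introns and are transcribed in S phase, when new chromatin is assembled. Their mRNAs are the known exception to polyadenylation in animal cells: they end shortly after a stem-loop that is bound by the protein SLBP. Histone variant genes are expressed through the cell cycle and mostly give ordinary spliced, polyadenylated mRNAs. Oligo(dT) beads recover the first kind poorly, so that counts of the replication-dependent class are low estimates and favour transcripts that carry a poly(A) tail. Some replication-dependent genes are known to make such longer, polyadenylated transcripts beside the stem-loop form.

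The annotated transcripts were searched for the sequence signals of either form. All 80 members matched a transcript of GENCODE M21 (build GRCm38; the counts were made on mm9). The stem-loop was searched as GG, any 2 bases, CTT, any base, T, any base, AG, any 2 bases and CC, on the transcript strand, with the first 6 bases pairing with the last 6. It was found in 46 of 68 replication-dependent members (67.6%), in 1 of 12 variants (H2afx) and in 0.0413% of 21799 other protein-coding genes. Of the 22 replication-dependent members without a match, 13 have annotated transcripts of 420 bases or fewer. Such short annotations may stop before the end of the RNA, so a missing stem-loop or polyadenylation signal does not show that the RNA lacks it. The stem-loops of members described below are given 5′ to 3′ with 5 flanking bases, the stem-loop in capitals.

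Hist1h1c: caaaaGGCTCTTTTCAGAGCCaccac

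Hist1h1d: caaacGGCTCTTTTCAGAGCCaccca

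Hist1h2ac: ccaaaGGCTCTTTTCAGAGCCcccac

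Hist3h2ba: ccaaaGGCTCTTTTCAGAGCCacctt

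Hist1h3g: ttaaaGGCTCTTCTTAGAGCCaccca

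Hist1h4i: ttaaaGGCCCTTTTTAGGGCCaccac

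H2afx: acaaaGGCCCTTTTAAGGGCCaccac

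In 22 of the 46 matches the annotated transcript ends within 60 bases after the stem-loop. In the other 24 it runs on for longer, by 840 bases in Hist1h1c and 1643 in Hist3h2a. A polyadenylation hexamer (AATAAA or ATTAAA) stood within the last 50 bases of a transcript in 17 of 68 replication-dependent members (25%), 14 of which also hold the stem-loop. Such a hexamer was in 10 of 12 variants (83.3%) and in 81% of other protein-coding genes. The hexamers of the 4 replication-dependent members with the most reads are shown in capitals with flanking bases.

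Hist3h2a: gtatatgcccAATAAAataagagtac

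Hist3h2ba: taatggtattAATAAAtttggttcaa

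Hist1h1c: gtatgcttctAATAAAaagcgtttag

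Hist2h2be: tattattattAATAAAgttaccgatt

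Reads were divided unevenly between genes with and without the hexamer. Counts are per gene, so no read is assigned to the stem-loop or the polyadenylated form. The reads given here are not divided by annotated transcript length, which differs between members (2620 bases in Hist2h2be, 393 in Hist1h2ak). The 17 replication-dependent members with a terminal hexamer held 85.2% of the reads of their class, and the 51 without it held 14.8%. Most of the 42425 reads of the 17 came from Hist3h2a (11635), Hist3h2ba (9821), Hist1h1c (9670) and Hist2h2be (9076). The split by reads thus rests mainly on these 4 genes. Over the 6 libraries the median was 187 reads for members with the hexamer and 25 reads for those without it. Among the 6 members with 1000 or more reads, 4 carry the hexamer (those shown above), and the exceptions are Hist1h2bc and Hist1h2ak. A second feature was the likeness between copies. For each member, 50-base windows were taken from its longest protein-coding transcript (or longest transcript, where none is coding). A window was called unique if it occurred in no other gene's transcript, on either strand. Genes whose annotated exons overlap those of the member were not counted as other genes, so windows shared only with them are called unique. The 30 members with under 50% unique windows held 4.89% of the reads of the class. In 9 members under 10% of windows were unique, and 6 of these 9 had no read at all. The deposited counts set aside reads aligned to several places, which made up 9.0% to 9.74% of each library, so copies that share their sequence are undercounted by an amount that cannot be read from these files.

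**Figure D1:**
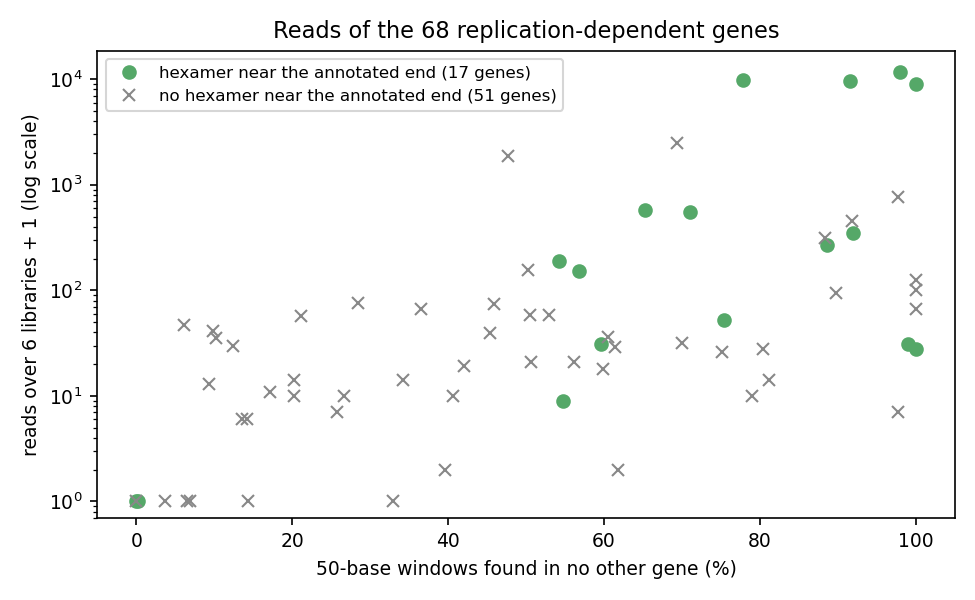
Reads of each of the 68 replication-dependent genes, summed over 6 libraries plus 1 (log scale), against the percent of its 50-base windows found in no other gene's transcript. Genes with exons that overlap those of the member are not counted as other genes. Circles are the 17 genes with a polyadenylation hexamer in the last 50 annotated bases, which include the 4 genes with the most reads, and crosses are the other 51.

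Gene counts per library totalled 13622020 to 19804949. Levels are in CPM, counts scaled to library size with TMM factors, of which 1 stood for 13.6 to 19.6 reads. The detection floor of 3 reads stood at 0.153 to 0.22 CPM. Crebbp itself stood at 66.2, 69.6 and 69.4 CPM among control replicates 1, 2 and 3, against 46.2, 58.3 and 48.9 CPM with hairpins 1, 2 and 5 (log2 fold change -0.42 ± 0.10 SE), with all hairpins below all controls; it did not pass in edgeR (adjusted p = 0.0999) and passed in DESeq2 (adjusted p = 0.0163). All 8 listed markers of neuroendocrine lung cells were detected in every library. Summed levels of the 6 leukocyte markers lay between 3.01 and 5.47 CPM and of the 4 endothelial markers between 0.885 and 1.64 CPM, and the 4 globin genes were at 0. Of 6 fibroblast markers Col3a1 was at 0 throughout, while Dcn stood at 11.2 to 61.7 CPM.

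Counts of histone variants exceeded those of replication-dependent histones in every library. Poly(A) selection undercounts the second class, so the ratios below do not measure the mRNA ratio in the cells. The 12 variants summed to 8627, 8613 and 8729 CPM among control replicates 1, 2 and 3, against 8131, 8546 and 10032 CPM with hairpins 1, 2 and 5. The 68 replication-dependent genes summed to 587, 603 and 609.8 CPM in controls against 405, 405 and 600.2 CPM with hairpins 1, 2 and 5. Hairpins 1 and 2 thus lay below all controls, at 67.5% of the control mean each, whereas hairpin 5 lay inside the control range at 100%. The variant sum was at 93.9%, 98.7% and 116% of the control mean with hairpins 1, 2 and 5. Variants therefore exceeded the replication-dependent class 14.7-fold, 14.3-fold and 14.3-fold in controls against 20.1-fold, 21.1-fold and 16.7-fold with the hairpins. Divided by annotated transcript length, the excess was 8.37-fold to 8.84-fold in controls against 10-fold to 11.3-fold with hairpins. Each hairpin is represented by 1 library, so the difference between hairpins has no replicate.

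**Figure D2:**
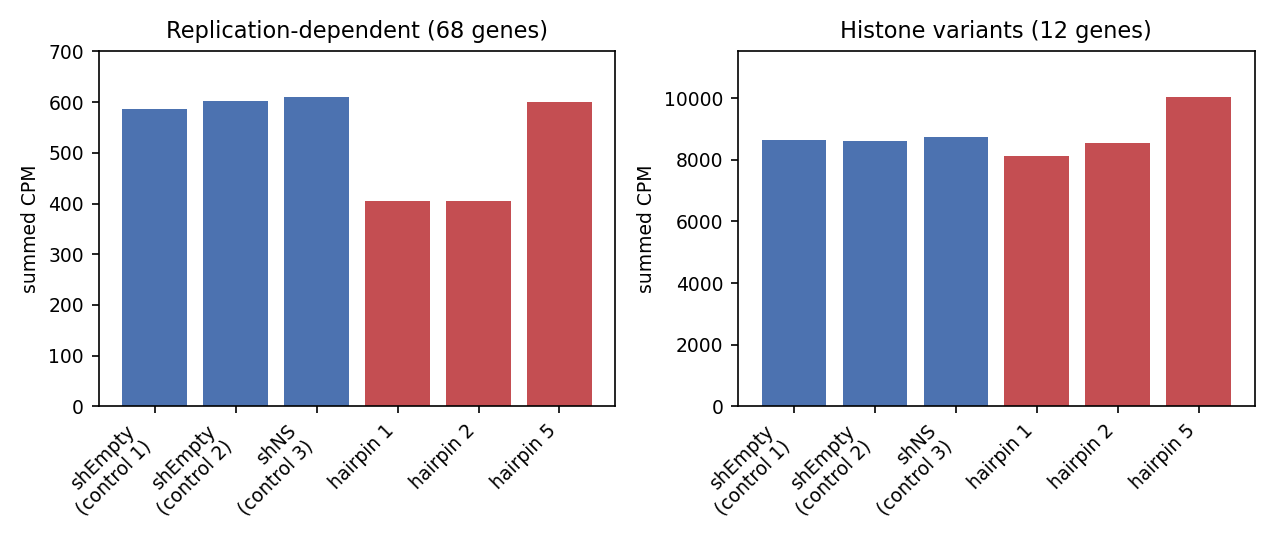
Summed CPM of the 68 replication-dependent genes (left) and the 12 variants (right) in each library, 1 bar per library, blue for controls and red for hairpins. Replication-dependent sums with hairpins 1 and 2 (405 CPM each) lie below the 587 to 609.8 CPM of the controls, and hairpin 5 (600.2 CPM) does not.

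No histone gene passed the threshold in the edgeR comparison of the 3 hairpin libraries with the 3 controls. The filter on low counts kept 25 of 68 replication-dependent members and 10 of 12 variants among 13390 genes. Over all of these, 168 genes (1.25%) had an adjusted p under 0.05, 131 lower (0.978%) and 37 higher (0.276%) with the hairpins. Among the members 0 were called, and the smallest adjusted p was 0.0974 in the replication-dependent class and 0.108 among variants. At an unadjusted p under 0.05 there were 6 replication-dependent members, 5 of them lower, and 2 variants, 1 of them lower; over all genes 16.5% lay under that p. limma-voom also called 0 members, while DESeq2 called Hist1h1d and H2afj lower, against 3.23% of all genes called lower by it. The log2 fold changes of the 25 tested replication-dependent members had a median of -0.50, and 22 were negative, against a median of 0.01 and 46.8% negative over all genes tested. Those of the 10 tested variants had a median of -0.09, with 6 negative. All 3 hairpin libraries lay below all 3 controls in 6 tested replication-dependent members and 1 variant (11.0% of all genes), and above them in 1 of each class (11.4%). The replication-dependent member above them, Hist1h2ag, passed the filter through the hairpin libraries alone.

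By hairpin, the median log2 ratio to the control mean over the 25 tested members was -0.90, -0.58 and -0.14 with hairpins 1, 2 and 5, and 0.00 over all genes with each. Of the 17 replication-dependent genes with 100 or more reads, 15 lay below every control with hairpin 1, 14 with hairpin 2 and 7 with hairpin 5. Over all 12887 genes with that many reads, 36.4%, 37.2% and 31.3% did so with hairpins 1, 2 and 5. Below the control mean the same 17 genes were closer between hairpins, with 16, 15 and 14 of them, against 49.4%, 50.1% and 49.5% of all such genes. Without the hairpin 5 library edgeR called 3 members lower (Hist1h1d, Hist1h2bc and Hist2h2be), against 1.83% of all genes called lower in that fit. No member was called without any other library.

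**Figure D3:**
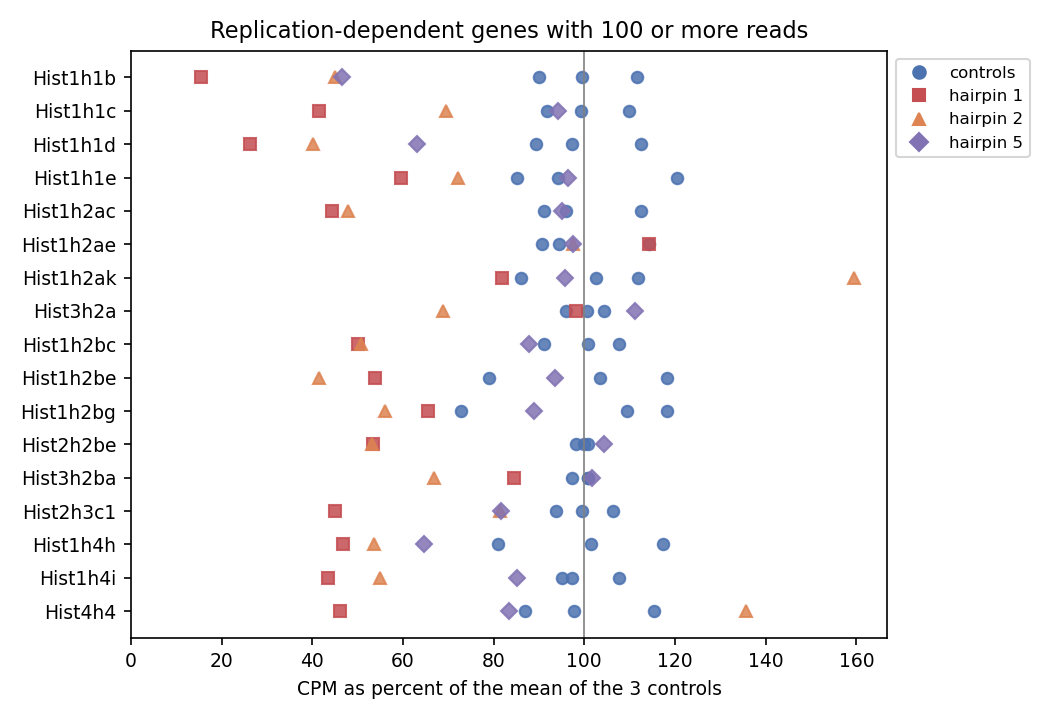
CPM of each replication-dependent gene with 100 or more reads as percent of its control mean, for each library (blue circles, controls; red squares, orange triangles and purple diamonds, hairpins 1, 2 and 5). Most squares and triangles lie left of the controls, with Hist1h2ak (159%) and Hist4h4 (136%) under hairpin 2 to the right.

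Of the families, linker histone H1 had the lowest relative level with hairpin 1, at 41.1% of the control mean. The 6 replication-dependent H1 genes summed to 134, 139.7 and 157 CPM among control replicates 1, 2 and 3, against 58.9, 95.9 and 130.5 CPM with hairpins 1, 2 and 5. These groups did not overlap, although hairpin 5 stood at 90.9% of the control mean. Most of this sum came from Hist1h1c, at 113, 122 and 135 CPM in controls against 51.1, 85.4 and 116 CPM with hairpins 1, 2 and 5. Its hairpin 5 value lay within the control range, and the log2 fold change of -0.55 ± 0.25 (SE) did not pass (edgeR adjusted p = 0.323). Hist1h1d stood at 10.9, 10 and 12.6 CPM in controls against 2.94, 4.49 and 7.08 CPM with hairpins, each below all controls. That is 11.2 ± 1.29 against 4.84 ± 2.09 CPM (SD, n = 3 each) and a log2 fold change of -1.20 ± 0.29 (SE). In edgeR it did not pass (adjusted p = 0.0974), but DESeq2 called it (adjusted p = 0.00567), as did edgeR without hairpin 5 (adjusted p = 0.032).

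Hist1h1b had few reads, with 37, 28 and 29 in controls against 4, 12 and 13 with hairpins 1, 2 and 5. Its levels, 1.89, 1.71 and 2.12 CPM against 0.294, 0.855 and 0.885 CPM, did not overlap, and the log2 fold change of -1.47 ± 0.40 (SE) did not pass (edgeR adjusted p = 0.122). Hist1h1e, at 6.54, 4.63 and 5.11 CPM in controls against 3.23, 3.92 and 5.24 CPM with hairpins, overlapped between groups (edgeR adjusted p = 0.495). Its annotated exons overlap those of Hist1h2be, so the counts of both are uncertain. Hist1h1a (0.749 to 1.61 CPM over the libraries) overlapped as well. The testis-type gene Hist1h1t, at 0.147 to 0.365 CPM, was close to the detection floor and was not tested.

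The promoters of these linker genes share short elements that the choice of members did not use. RefSeq promoters (GRCm38.p6, 250 bases before to 50 after the annotated start) were found for 61 of the 68 replication-dependent members and 9 of 12 variants, and were searched on both strands for each element on its own. The H1 box AAACACA, an element known from H1 promoters, was in 5 of 6 linker promoters (83.3%), in 14.8% of all 61 replication-dependent promoters and in 7.14% of 27025 promoters over all genes. CCAAT was in 52 of 61 (85.2%), against 37.9% of all promoters and 3 of 12 H4 promoters (25%). TATAAA was in 57.4% against 14.2%, and the octamer ATTTGCAT, known from H2B promoters, in 21.3% against 1.75%. By family, the octamer was in 6 of 16 H2B promoters (37.5%), in 7 of 17 H2A promoters (41.2%) and in 0% of the H1, H3 and H4 promoters. Promoters of neighbouring genes that start in opposite directions can overlap, so an element may be counted for both. Among variants, CCAAT was in 6 of 9 promoters, and each of the other 3 elements was in 1 of 9. Stretches from 150 bases before to 20 bases after the start follow for the linker gene pair with the lowest fold changes and for the H2A gene Hist1h2ac, with matches to these 4 elements on either strand in capitals (the ATA that opens the Hist1h1d stretch ends a match that begins before it).

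Hist1h1b, chr13:21780606-21780775, minus strand: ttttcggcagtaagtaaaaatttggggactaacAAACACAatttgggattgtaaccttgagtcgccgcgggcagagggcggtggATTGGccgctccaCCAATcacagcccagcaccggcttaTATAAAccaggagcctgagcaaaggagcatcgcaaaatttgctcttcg

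Hist1h1d, chr13:23554882-23555051, plus strand: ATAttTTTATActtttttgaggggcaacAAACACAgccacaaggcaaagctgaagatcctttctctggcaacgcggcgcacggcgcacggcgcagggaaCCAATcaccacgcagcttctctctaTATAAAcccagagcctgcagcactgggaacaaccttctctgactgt

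Hist1h2ac, chr13:23683940-23684109, minus strand: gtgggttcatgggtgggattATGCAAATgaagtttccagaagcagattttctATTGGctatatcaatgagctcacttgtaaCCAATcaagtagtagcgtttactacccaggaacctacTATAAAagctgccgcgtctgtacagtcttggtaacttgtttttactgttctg

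H2B genes carried the largest share of replication-dependent reads, 44.2%. The 19 genes summed to 264, 273 and 271 CPM among control replicates 1, 2 and 3, against 179, 158 and 272 CPM with hairpins 1, 2 and 5, so that hairpins 1 and 2 were low and hairpin 5 was at the control level. Hist2h2be stood at 114, 112 and 115 CPM in controls against 60.9, 60.7 and 119 CPM with the hairpins. Hairpins 1 and 2 were thus at 53.6% and 53.4% of the control mean and hairpin 5 at 105%. Over all 6 libraries the log2 fold change was -0.50 ± 0.24 (SE; edgeR adjusted p = 0.352), and without hairpin 5 it was -0.91 (edgeR adjusted p = 0.014). Hist1h2bc stood at 30, 35.4 and 33.2 CPM in controls against 16.5, 16.7 and 28.9 CPM with the hairpins, all below the controls. Its log2 fold change was -0.66 ± 0.21 (SE; edgeR adjusted p = 0.179), and -0.99 without hairpin 5 (edgeR adjusted p = 0.018). Hist3h2ba, in the small Hist3 cluster, stood at 112, 116 and 116 CPM in controls against 97.2, 77 and 117 CPM with the hairpins (edgeR adjusted p = 0.45). The lowest value there belonged to hairpin 2, not hairpin 1.

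H2A sums lay closer to the controls. Their 18 members summed to 159.6, 159.9 and 152 CPM in controls against 150, 126 and 171 CPM with hairpins 1, 2 and 5. Hist3h2a gave most of this sum, at 136, 131 and 125 CPM in controls against 128, 89.7 and 145 CPM with the hairpins, with hairpin 2 alone below the controls (log2 fold change -0.11 ± 0.16 SE, edgeR adjusted p = 0.805). Hist1h2ac was at 3.98, 3.78 and 4.67 CPM in controls against 1.84, 1.99 and 3.95 CPM with hairpins (edgeR adjusted p = 0.363). Its annotated start lies 251 bases from that of Hist1h2bc, which is transcribed in the opposite direction, and the log2 fold changes of this head-to-head pair were -0.67 and -0.66. In the only other of 14 such pairs with both genes tested, Hist1h2ae and Hist1h2bg (176 bases between starts), they were 0.04 and -0.52, and none of these 4 genes passed in edgeR.

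Other H2A genes had values above or level with the controls. Hist1h2ak stood at 16.6, 21.6 and 19.8 CPM in controls against 15.8, 30.8 and 18.5 CPM with hairpins 1, 2 and 5, so that hairpin 2 was the highest library and hairpin 1 the lowest (edgeR adjusted p = 0.797). Its annotated transcript spans 393 bases, holds neither a stem-loop nor a terminal hexamer, and 47.7% of its windows are unique. Hist1h2ag was the 1 tested replication-dependent member with all hairpins above all controls, on 5, 10 and 4 reads in controls against 10, 13 and 14 with hairpins (log2 fold change 1.17 ± 0.43 SE, edgeR adjusted p = 0.23). It passed the filter on low counts through the hairpin libraries alone. Its place among the tested genes thus rests on the group where it was high. Only 21.1% of its windows are unique. Hist1h2ae was level, at 1.46 to 1.84 CPM in controls against 1.57 to 1.84 CPM with hairpins.

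H3 and H4 genes were scarce in these libraries, with 1.96% and 3% of the replication-dependent reads. The 12 H3 genes summed to 10.8, 12.5 and 11.6 CPM in controls against 6.98, 10.5 and 10.6 CPM with hairpins 1, 2 and 5. Hist2h3c1, the most abundant of them, stood at 7.31, 6.89 and 7.81 CPM in controls against 3.31, 5.98 and 5.99 CPM with hairpins, all below the controls (log2 fold change -0.52 ± 0.25 SE, edgeR adjusted p = 0.35). Hist1h3g, whose transcript ends 47 bases after its stem-loop, had 0.715, 0.975 and 1.02 CPM in controls against 0.808, 0.427 and 0.817 CPM with hairpins, with overlap (edgeR adjusted p = 0.687). The 13 H4 genes summed to 18.4, 18.5 and 18.9 CPM in controls against 10.1, 14.4 and 15.8 CPM with hairpins, again without overlap. Hist1h4i stood at 6.9, 7.07 and 7.81 CPM in controls against 3.16, 3.99 and 6.19 CPM with hairpins (log2 fold change -0.70 ± 0.26 SE, edgeR adjusted p = 0.235). Hist1h4h stood at 2.96, 2.56 and 2.04 CPM against 1.18, 1.35 and 1.63 CPM (log2 fold change -0.86 ± 0.28 SE, edgeR adjusted p = 0.185). Hist4h4, in contrast, spanned both sides of the controls, at 3.47, 3.9 and 4.6 CPM in controls against 1.84, 5.41 and 3.33 CPM with hairpins 1, 2 and 5.

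The other replication-dependent members were at or near the limit of counting. In the class, 43 members had 1 to 99 reads over all libraries, with a median of 27, and 8 had none (Hist1h2ad, Hist1h2ao, Hist1h2ap, Hist1h2bq, Hist1h2br, Hist1h4n, Hist2h2aa1 and Hist2h2aa2). No read in a library allows up to 0.153 to 0.22 CPM there, counting error only. Differences between groups were not detectable at this depth for most of them, and 35 members with reads did not pass the filter on low counts. Summed over the 51 genes without a terminal hexamer, the class stood at 84.5, 95.4 and 90.5 CPM in controls against 53.4, 71.1 and 79.1 CPM with hairpins 1, 2 and 5, and the 17 with the hexamer at 503, 508 and 519 CPM against 352, 334 and 521 CPM. By cluster, the 54 Hist1 genes stood at 49.2%, 72.3% and 90.9% of their control mean with hairpins 1, 2 and 5, the 10 Hist2 genes at 53.4%, 55.7% and 103%, and the 3 Hist3 genes at 91.9%, 67.9% and 107%.

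Among the variants, H3f3b was the most abundant, in CPM and per length. H3f3b and H3f3a encode the same replacement H3 protein, which is deposited outside replication. H3f3b stood at 3736, 3727 and 3968 CPM among control replicates 1, 2 and 3, against 3875, 4113 and 4600 CPM with hairpins 1, 2 and 5 (log2 fold change 0.14 ± 0.08 SE, edgeR adjusted p = 0.47). H3f3a stood at 1186, 1110 and 1129 CPM in controls against 968, 972 and 1229 CPM with hairpins (log2 fold change -0.11 ± 0.11 SE, edgeR adjusted p = 0.671). The pair differed in that hairpins 1 and 2 lay below the controls for H3f3a alone. Per kilobase of transcript, control levels were 1516 ± 54.4 CPM for H3f3b, 976 ± 18.7 for H2afz, 645 ± 30.3 for H1f0, 402 ± 14 for H3f3a and 311 ± 21 for H1fx (SD, n = 3). On the same per-length scale the highest replication-dependent gene, Hist3h2ba, stood at 187 ± 3.48 CPM, followed by Hist1h1c at 79.1 ± 6.91, Hist3h2a at 60.7 ± 2.54, Hist1h2ak at 49.1 ± 6.48 and Hist2h2be at 43.4 ± 0.605. Hist1h2ak did not differ from Hist2h2be beyond its SD. The SD leaves out any error in the annotated lengths (393 bases for Hist1h2ak, 2620 for Hist2h2be), on which these ranks depend.

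Both linker variants were lowest with hairpin 1, as the replication-dependent linker sum was. So were the non-linker variants H2afv and H3f3a and the sum of all variants. H1f0, the replacement linker of differentiated and slowly dividing cells, stood at 1348, 1373 and 1255 CPM in controls against 1009, 1121 and 1592 CPM with hairpins 1, 2 and 5. Hairpins 1 and 2 were thus below the controls and hairpin 5 above them (log2 fold change -0.10 ± 0.16 SE, edgeR adjusted p = 0.83). H1fx stood at 368, 407 and 359.5 CPM in controls against 299.5, 356 and 409.8 CPM with hairpins, in the same order (edgeR adjusted p = 0.776).

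The H2A variants had small fold changes of either sign. H2afj, which differs from the canonical H2A chiefly in its tail, stood at 105, 118 and 116 CPM in controls against 94.1, 91.2 and 85 CPM with hairpins 1, 2 and 5. It was the 1 variant with all hairpins below all controls, at 113 ± 6.94 against 90.1 ± 4.63 CPM (SD, n = 3 each; log2 fold change -0.33 ± 0.08 SE). It did not pass in edgeR (adjusted p = 0.108) and passed in DESeq2 (adjusted p = 0.0216). H2afy, which encodes macroH2A with its large non-histone domain, stood at 297, 315 and 310.1 CPM in controls against 336, 351 and 346 CPM with hairpins, all above the controls (log2 fold change 0.16 ± 0.07 SE, edgeR adjusted p = 0.304). The second macroH2A gene, H2afy2, stood at 114, 114 and 121 CPM against 127, 131 and 120.3 CPM, with overlap (edgeR adjusted p = 0.505).

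H2afz, which encodes H2A.Z, a variant found at promoters and enhancers, stood at 1035, 1028 and 1066 CPM in controls against 1063, 1069 and 1202 CPM with hairpins (edgeR adjusted p = 0.628). Since 30.4% of its windows are unique, it may be undercounted. The gene of the second H2A.Z form, H2afv, stood at 249, 238 and 225 CPM against 194, 204 and 240.4 CPM (edgeR adjusted p = 0.484). H2afx, whose product is phosphorylated at DNA breaks, stood at 189.8, 182 and 181 CPM in controls against 166, 134 and 208 CPM with hairpins 1, 2 and 5 (edgeR adjusted p = 0.755). Hairpins 1 and 2 thus lay below the controls and hairpin 5 above them. H2afx is the 1 variant with a stem-loop in its transcript. H1f0, H1fx and H3f3a, without a match, also had hairpins 1 and 2 below and hairpin 5 above the controls. Hairpin 1 was lowest for these genes, and hairpin 2 was lowest for H2afx. The part of the stem-loop was not tested. H2afb1 had no read.

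The annotated pseudogene H2afy3 had 4, 4 and 8 reads in controls against 3, 47 and 3 with hairpins 1, 2 and 5. In GRCm38 its exons overlap the long non-coding gene Pvt1, named here after its values were seen. Pvt1 stood at 8.12, 18.3 and 33.9 CPM in controls against 8.75, 262 and 8.64 CPM with hairpins 1, 2 and 5, so the same library was high for both. Whether reads counted for H2afy3 came from Pvt1 transcripts was not tested.

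**Figure D4:**
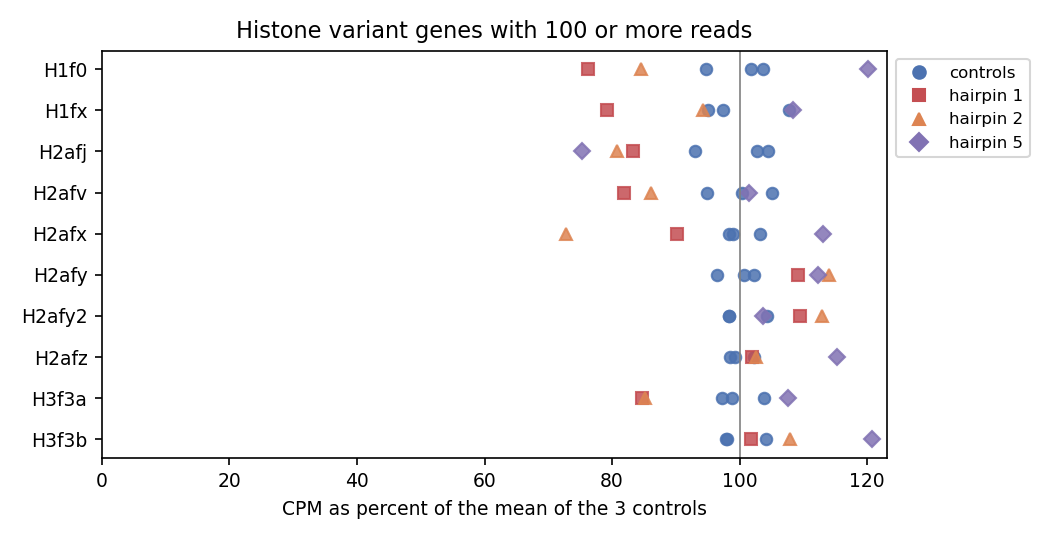
CPM of each histone variant gene with 100 or more reads as percent of its control mean, for each library (blue circles, controls; red squares, orange triangles and purple diamonds, hairpins 1, 2 and 5). H2afj has all hairpins left of the controls, and hairpin 5 is rightmost for H1f0, H1fx, H2afx, H2afz, H3f3a and H3f3b.

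Genes of S phase and of mitosis are set beside the histone sums. Over all genes tested, 16.5% had an unadjusted p under 0.05, DESeq2 called 5.45% in either direction, 53.2% had positive and 46.8% negative fold changes. Of 30 S phase genes 0 were called in edgeR (9 at an unadjusted p under 0.05, 4 in DESeq2, 0 in limma-voom), 29 had positive fold changes and the median log2 fold change was 0.15. Pcna, the DNA polymerase clamp gene, stood at 597, 609 and 641 CPM in controls against 751, 755 and 763 CPM with hairpins (edgeR adjusted p = 0.0902, DESeq2 adjusted p = 0.00139), and the cyclin gene Ccne1 at 32.7, 35.2 and 44.2 CPM against 56.7, 61.5 and 50.7 CPM (edgeR adjusted p = 0.0812, DESeq2 adjusted p = 0.00509). Of 29 G2 and M phase genes 0 were called in edgeR (17 at an unadjusted p under 0.05, 9 in DESeq2, 0 in limma-voom), all 29 had negative fold changes and the median was -0.37. Prc1, a gene of the mitotic spindle midzone, stood at 336, 304 and 281 CPM in controls against 227, 174 and 234 CPM with hairpins (edgeR adjusted p = 0.0918, DESeq2 adjusted p = 0.00467). The mitotic kinase gene Plk1 stood at 145, 146 and 141 CPM against 106, 83.3 and 119.6 CPM (edgeR adjusted p = 0.111, DESeq2 adjusted p = 0.0156, edgeR without hairpin 5 adjusted p = 0.0461). By hairpin, the mean log2 ratio to controls of the G2 and M phase genes was -0.44, -0.77 and -0.10 with hairpins 1, 2 and 5, and that of the S phase genes 0.13, 0.17 and 0.24. The control libraries, each against the other controls, had 0.15, 0.00 and -0.16 for G2 and M phase genes and -0.03, -0.02 and 0.05 for S phase genes. The log2 ratios of the replication-dependent histone sum were -0.57, -0.57 and 0.00. Hairpins 1 and 2 were thus low both for this sum and for the G2 and M phase genes, while the S phase genes were above the controls with each hairpin. The part of cell cycle phase in the histone values was not tested, and fewer cells in a phase and less RNA per cell cannot be told apart in bulk samples.

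**Figure D5:**
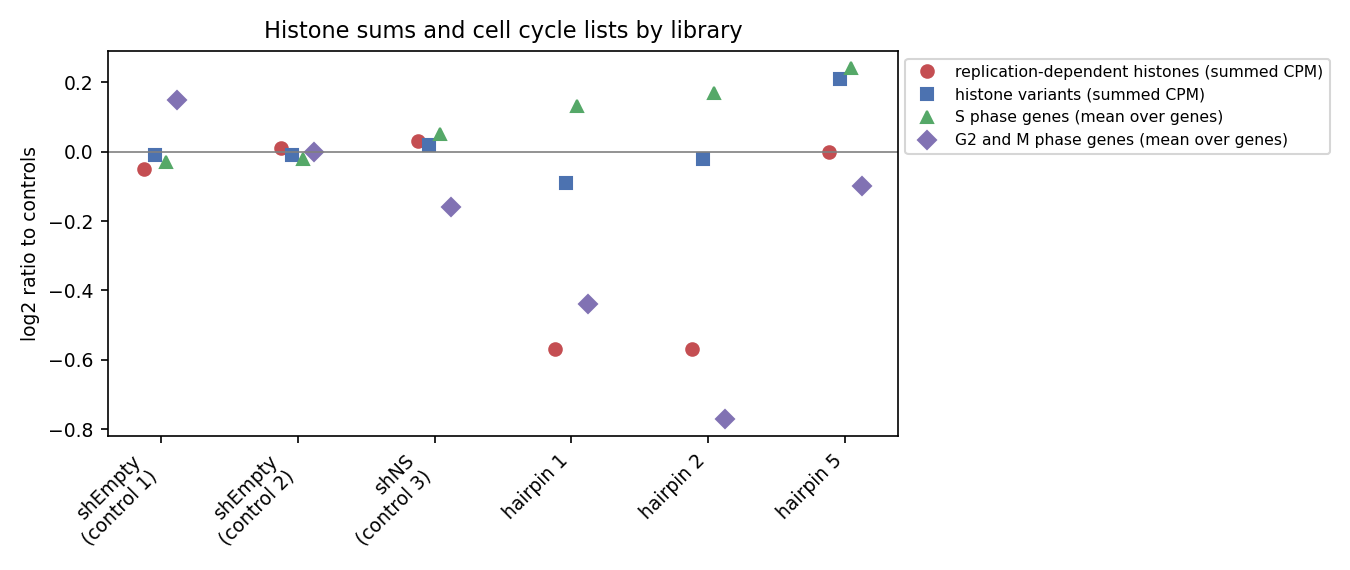
Log2 ratio of each library to the mean of the 3 controls (for a control, to the other 2) for the summed CPM of both histone classes and for the mean over S phase and over G2 and M phase genes. With hairpins 1 and 2 the replication-dependent sum (-0.57 each) and the G2 and M phase genes (-0.44 and -0.77) lie below 0, and S phase genes lie above it.

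Genes for the machinery that makes and handles histone mRNAs and proteins were compared next. Of all genes tested, 16.5% had an unadjusted p under 0.05 in edgeR, DESeq2 called 5.45% in either direction and 53.2% had positive fold changes. Of 19 genes for stem-loop mRNA processing and decay 0 were called in edgeR (4 at an unadjusted p under 0.05, 1 in DESeq2, 0 in limma-voom), 11 had positive and 8 negative fold changes, and the median log2 fold change was 0.05. Slbp, the stem-loop binding protein gene, stood at 168, 162 and 176 CPM in controls against 187, 199 and 209 CPM with hairpins (log2 fold change 0.23 ± 0.08 SE, edgeR adjusted p = 0.199). Upf1, the helicase gene needed for histone mRNA decay, stood at 224, 231 and 225 CPM against 184, 169 and 173 CPM (log2 fold change -0.37 ± 0.07 SE, edgeR adjusted p = 0.059). It passed in DESeq2 (adjusted p = 0.000249) and in edgeR without hairpin 1 (adjusted p = 0.0377). The groups overlapped for neither Slbp nor Upf1. Over all genes tested, 11.0% had all hairpins below all controls and 11.4% had all hairpins above them. Among 25 histone chaperone and exchange genes 0 were called in edgeR (2 at an unadjusted p under 0.05, 0 in DESeq2 and limma-voom), 17 had positive fold changes and the median was 0.09. The nucleosome assembly gene Nap1l1 stood at 646, 631 and 643 CPM in controls against 716, 811 and 702 CPM with hairpins (edgeR adjusted p = 0.239), and the H2A.Z exchange gene Vps72 at 53.8, 54.7 and 53.6 CPM against 61.7, 59.4 and 62.5 CPM (edgeR adjusted p = 0.302).

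Genes listed for RNAs that mostly lack a poly(A) tail were summed beside the histone values. Whether oligo(dT) beads pass over each of these RNAs was not tested, so the sums do not measure the selection step. The list held 123 genes (small nuclear, nucleolar and Cajal body RNAs, ribosomal RNA precursor, Malat1, Neat1 and others), of which 37 had no read. Their levels summed to 4241, 4721 and 5881 CPM in controls against 4109, 6995 and 5293 CPM with hairpins 1, 2 and 5. Without the ribosomal precursor Rn45s the sums were 2067, 2441 and 2772 CPM against 1614, 4125 and 2275 CPM. Hairpin 1 was the lowest library and hairpin 2 the highest on both sums. Of 12 tested members of this list 0 were called in edgeR, DESeq2 or limma-voom, and 0 had an unadjusted p under 0.05. Snord96a and Snord22 had the smallest p (edgeR adjusted p = 0.524 and 0.552). The part of the poly(A) selection in the histone values was not tested.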

How the data were processed

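Total RNA of 6 preSC libraries (500 ng each) was selected with oligo(dT) beads and made into NEBNext Ultra libraries, per the labels' protocols. Tools named by the submitters' processing notes are HTSeq 0.6.1, TopHat2 2.0.12 and bcl2fastq 1.8.2, with build mm9. The counting annotation is not given in the sources used here, nor is the strand setting, and without strand a gene and its antisense partner cannot be told apart. The authors deposited 1 table of raw counts a library, by gene symbol and not normalized. The 5 HTSeq summary rows (24.8% to 28.9% of counts) were left out. Library depth and its precision are given with the results. Counts were tested in R 4.3.3 with edgeR 4.0.16 (TMM, filterByExpr, robust quasi-likelihood F test, intercept and group), with Benjamini-Hochberg adjustment over all genes tested and a threshold of 0.05. SE is the fold change divided by the root of F.

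Class sums are CPM added over all members and carry no test. Mean log2 ratios of gene lists use a pseudocount of 0.1 CPM. Alternatives were DESeq2 1.42.0, limma-voom (limma 3.58.1), RLE and upper quartile scaling, no filter, a filter of 1 CPM in 3 libraries, and leaving out each library. The edgeR script was tested on simulated data of 13275 genes. It recovered 98 of 99 simulated 4-fold changes and 75 of 99 simulated 2-fold changes, with 12 false calls. Smaller changes were not simulated.

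Named were Crebbp, the variants with a read, the 12 replication-dependent genes of highest mean CPM, called members, the 3 members of smallest p per class and direction, and up to 4 called genes (or the 2 of smallest p) per companion list. Further members were named to account for families and non-overlapping groups, after their values were seen. Members and lists were chosen with earlier results of these data known.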

Additional observations from a re-analysis of the deposited data

How the results depend on the processing

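The count of called genes over the whole table (168) depended on the libraries: edgeR called 0 without control replicate 1 or 2 (1332 and 1238 genes had an unadjusted p under 0.05), 48 without control replicate 3, and 368, 101 and 389 without hairpins 1, 2 and 5. DESeq2 called 730. Called replication-dependent members numbered 0 in the main analysis, 1 with DESeq2 (Hist1h1d) and 3 without hairpin 5; leaving out single libraries gave 0 to 3. Called variants numbered 0, and 1 with DESeq2 (H2afj). The cause of these shifts was not tested. Under the other scalings and filters and limma-voom no member was called. The log2 ratio of the replication-dependent sum was -0.35 and ranged from -0.57 (without hairpin 5) to -0.26 (without hairpin 1 or 2), and it was -0.43 without its most abundant member. That of the variant sum was 0.04, and it ranged from -0.05 (without hairpin 5) to 0.10 (without hairpin 1), with -0.04 without its most abundant member.

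Of 299 values of 25 named members under alternatives, 9 changed sign, all in genes far from the threshold. When single libraries were left out, log2 fold changes ranged from -0.17 (without hairpin 2) to 0.35 for Hist1h2ak, from -0.27 to 0.06 (without hairpin 2) for Hist3h2a, from -0.30 to 0.02 (without hairpin 2) for H2afx, from -0.62 to 0.13 (without hairpin 1) for Hist4h4, from -0.33 to 0.03 (without hairpin 1) for H1f0 and from -0.22 to 0.02 (without hairpin 1) for H1fx. Hist1h2ae ranged from -0.05 (without hairpin 1) to 0.15 and was also negative without control replicate 2 (-0.01) or 3 (-0.03). The cause was not tested. No paired analysis was possible because the hairpin numbers name constructs and the labels pair no hairpin library with a control. Depth limits most replication-dependent genes, 51 of 68 having under 100 reads in all. Counts of genes that overlap another gene's exons (32 members in GRCm38) or share sequence with copies are uncertain.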
